A study of Mus musculus with 12 samples.

Results

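The thrombospondins are large secreted proteins of the extracellular matrix, and the genes described here are the 5 mouse members, Thbs1, Thbs2, Thbs3, Thbs4 and Comp, with 2 of their cell surface receptors, Cd36 and Cd47. These 7 genes, of 30701 that the array names, were chosen by gene symbol. Each had 1 transcript cluster, the unit by which the array reads 1 locus, so the tie-break by the highest mean signal over all arrays was not needed. The family was proposed with earlier results of these arrays known, and its p-values are therefore a description of these arrays and no independent evidence.

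The study asked what the transcription factor FOXL2, made by ovarian granulosa cells, does in the gonad of a male embryo. The arrays measured total RNA from fetal gonads at embryonic day 14.5, with the mesonephros removed and 1 pair of gonads for each array. XY FOXL2+ gonads carried Rosa26-CAG-LSL-Foxl2 +/f together with Sf1-cre +/Tg. XY control and XX control gonads had Rosa26 +/+ and also carried Sf1-Cre +/Tg, so that the Cre transgene was common to all 3 groups. The Rosa26 allele expresses Foxl2 from a CAG promoter once Cre has removed a stop cassette, and Sf1-cre is active in somatic cells of the gonad, so germ cells, vessels and blood cells of the same organ are outside its main reach. The strain was mixed 129Sv and C57Bl/6J in every group, each group had 4 arrays, and the labels name no litter, day or batch.

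Thrombospondins do not build the matrix so much as adjust how cells answer to it. THBS1 and THBS2 form trimers, carry type 1 repeats that bind CD36 on endothelial cells and restrain the growth of vessels, and THBS1 can release TGF-beta from its latent complex. THBS3, THBS4 and COMP form pentamers, lack the type 1 repeats and are best known from cartilage, tendon, muscle and heart. CD36 is also a scavenger receptor that takes up fatty acids and lipoproteins. CD47 is a widely expressed membrane protein that binds THBS1 and that, through SIRPA on macrophages, protects a cell from being engulfed. In the adult ovary THBS1 and THBS2 are known as inhibitors of vessel growth in follicles and the corpus luteum.

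Of the 7 genes 3 changed in XY FOXL2+ gonads against XY controls (adjusted p under 0.05 in a limma fit over all transcript clusters), each in its own way. The 2 higher genes stand beside 2.46% of all clusters called higher, and the 1 lower gene beside 4.67% called lower. Thbs1 was 10.4-fold higher and stood above both controls. Thbs2 was 3.04-fold higher, between the male and the female level. Cd36 was 1.70-fold lower, nearer to the female level. Thbs3, Thbs4, Comp and Cd47 did not pass the test in this comparison.

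Promoter sequence is shown for Thbs2 and Cd36, the changed genes for which the RefSeq table (GRCm38.p6) holds a window of 250 bases before to 50 bases after the gene start. Capitals mark every match to 6 motifs searched on both strands. The Thbs2 window lies at chr17:14694213-14694512 and the Cd36 window at chr5:17835847-17836146, both on the minus strand and written 5′ to 3′ along the gene.
Thbs2: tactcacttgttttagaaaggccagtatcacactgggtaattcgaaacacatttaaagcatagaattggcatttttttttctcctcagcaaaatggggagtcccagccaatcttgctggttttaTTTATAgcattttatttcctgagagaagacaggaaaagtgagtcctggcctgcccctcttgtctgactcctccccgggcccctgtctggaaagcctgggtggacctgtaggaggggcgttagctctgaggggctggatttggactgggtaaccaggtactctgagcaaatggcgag
Cd36: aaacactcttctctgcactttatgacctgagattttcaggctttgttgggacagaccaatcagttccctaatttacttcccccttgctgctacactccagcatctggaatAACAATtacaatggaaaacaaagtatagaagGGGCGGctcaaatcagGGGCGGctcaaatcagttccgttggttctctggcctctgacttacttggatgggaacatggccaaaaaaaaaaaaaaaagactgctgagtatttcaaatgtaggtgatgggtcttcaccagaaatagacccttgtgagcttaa
The only match in the Thbs2 window was the TATA box core TATAAA, at position -126 relative to the gene start and on the opposite strand, where it reads TTTATA (positions give the first base of a match along the gene). This core was in 13.6% of all 32851 windows. The Cd36 window held the SOX core AACAAT at -140, which 10.7% of windows held, and the GC box GGGCGG at -109 and -93, which 35.7% held. None of the searched motifs overlapped another there.

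The fork head core TAAACA (in 13.4% of windows), the steroidogenic factor 1 site CAAGGTCA (in 1.56%) and the SMAD box GTCTAGAC (in 0.213%) were not among the letters of the window of any of the 5 members that the table holds. The other windows, those of Thbs3, Thbs4 and Cd47, matched the GC box alone, with 1 match in Thbs3 and 3 each in Thbs4 and in either Cd47 window. Forms of the SMAD box shorter than the letters given were not searched, and most windows lack a motif this rare. G and C made up 48.3% of the Thbs2 window and 43.0% of the Cd36 window, against a median of 52.7% over all windows. The windows of Thbs3 (59.0%), Thbs4 (72.0%) and Cd47 (74.0%) were richer in G and C than that median.

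Values are log2 signals as deposited. Each level belongs to its own probes, so levels are set against each other only within a gene. The exception is a comparison with genes that should be silent, which gives only a rough scale for low signals. Foxl2, the check of the labels, read 7.67, 8.62, 7.18 and 6.72 in XY FOXL2+ gonads (replicates 1 to 4), against 5.07, 5.55, 5.44 and 5.33 in XY controls and 8.08, 7.30, 7.14 and 7.39 in XX controls. Every XY FOXL2+ array was thus above every XY control array. Replicates 1 and 3 lay within the XX control range, replicate 2 above it and replicate 4 below it (difference from XY controls 2.20, adjusted p = 0.00122). The origin of this Foxl2 signal, transgene or endogenous locus, cannot be told apart with these probes.

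The XY FOXL2+ arrays differed among themselves. On principal components of all clusters, replicate 1 stood apart on the second component (-76.9, against -22.1 to 22.6 on all other arrays), and replicates 3 and 4 stood apart together on the third (-49.7 and -44.2, against -12.7 to 35.6). Fetal Leydig cell markers averaged 8.66, 7.91, 11.09 and 11.17 in XY FOXL2+ replicates 1 to 4, against 15.78 to 16.17 in XY controls and 7.83 to 8.07 in XX controls. Sertoli cell markers averaged 8.96, 7.95, 10.00 and 9.86 in the same 4 gonads, against 11.54 to 11.83 in XY controls and 7.30 to 7.39 in XX controls. Both lists were thus higher in replicates 3 and 4 than in replicates 1 and 2. Genes that should be silent give a scale for low signals: Eif2s3y, Uty, Kdm5d and Uba1y averaged 5.99, 6.24, 6.27 and 6.94 in XX controls, and Xist averaged 7.07 in XY controls.

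Thbs1, the best studied activator of latent TGF-beta in the family (chromosome 2), had signals of 13.39, 12.78, 14.20 and 13.88 in XY FOXL2+ gonads. It read 9.99, 10.70, 10.17 and 9.89 in XY controls and 11.34, 10.42, 10.34 and 10.66 in XX controls. All 4 XY FOXL2+ arrays were above all 8 control arrays, and the controls of both sexes overlapped. The means were 13.56 ± 0.62 in XY FOXL2+, 10.19 ± 0.36 in XY controls and 10.69 ± 0.45 in XX controls (SD, n = 4 each). Against XY controls the difference was 3.37 on the log2 scale (SE 0.30, 95% interval 2.73 to 4.02), with an adjusted p of 1.7e-05 in the limma fit over all 65956 clusters. That was the 12th largest increase among those clusters. Against XX controls it was 2.87 (interval 2.23 to 3.52, 7.33-fold, adjusted p = 0.00023), the 31st largest increase. The exact permutation test over arrays gave its smallest two-sided p, 0.0286, in both comparisons. In tissue RNA such as this, fewer or more cells of a type and less or more RNA per cell cannot be told apart.

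The XX control minus XY control difference of Thbs1 was 0.50 (interval -0.15 to 1.15) and did not pass the test (adjusted p = 0.319). The high signal in XY FOXL2+ gonads was therefore outside the range of both controls, and not a place between them. Without XY FOXL2+ replicates 3 and 4, the pair with the highest Thbs1, the difference from XY controls was 2.90 and that from XX controls 2.39.

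Thbs2, the other trimeric member and an inhibitor of vessel growth (chromosome 17), read 10.42, 11.84, 9.76 and 9.71 in XY FOXL2+ gonads. Its signals were 8.79, 8.89, 8.72 and 8.93 in XY controls, against which every XY FOXL2+ array was higher. In XX controls it read 12.15, 11.73, 11.52 and 11.72, and XY FOXL2+ replicate 2 reached into that range while the other 3 gonads stayed below it. The means were 10.43 ± 0.99 in XY FOXL2+, 8.83 ± 0.10 in XY controls and 11.78 ± 0.27 in XX controls (SD, n = 4 each).

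Against XY controls Thbs2 was 1.60 higher on the log2 scale (SE 0.36, interval 0.82 to 2.38, adjusted p = 0.0162), the 126th largest increase. Fitted on these 2 groups alone, the same difference had an adjusted p of 0.0622 and was no longer called. Against XX controls it was -1.35 (interval -2.13 to -0.57, 2.54-fold lower, adjusted p = 0.0481). That second call was weak: the groups overlapped, the exact permutation p was 0.114, and 10 of 16 alternative settings lost it, with -0.65 and an adjusted p of 0.315 when replicates 3 and 4 were left out. Leaving out XY FOXL2+ replicate 1, 3 or 4 alone, or any 1 XX control array, was enough to lose it (adjusted p 0.0735 to 0.139). The sex difference of Thbs2 itself was large, 2.95 in XX controls over XY controls (interval 2.17 to 3.73, 7.72-fold, adjusted p = 9.5e-05), with no overlap.

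On a scale on which the XY control mean is 0 and the XX control mean is 1, Thbs2 stood at 0.54, 1.02, 0.31 and 0.30 in XY FOXL2+ replicates 1 to 4. Replicate 2 was at the female level, and replicates 3 and 4 were nearer to the male level. Fetal granulosa cell markers, which include Foxl2, averaged 9.17, 9.87, 8.17 and 8.11 on the same arrays, against 7.52 to 7.58 in XY controls and 10.19 to 10.52 in XX controls. The order of the 4 gonads in these markers was that of Thbs2. It was not particular to them: erythroid markers (10.57, 11.34, 9.39 and 8.89), Foxl2 and Cd36 had the same order. Fetal Leydig markers (8.66, 7.91, 11.09 and 11.17) had the reverse order. The part of any of these cell types in the Thbs2 difference was not tested.

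**Figure D1:**
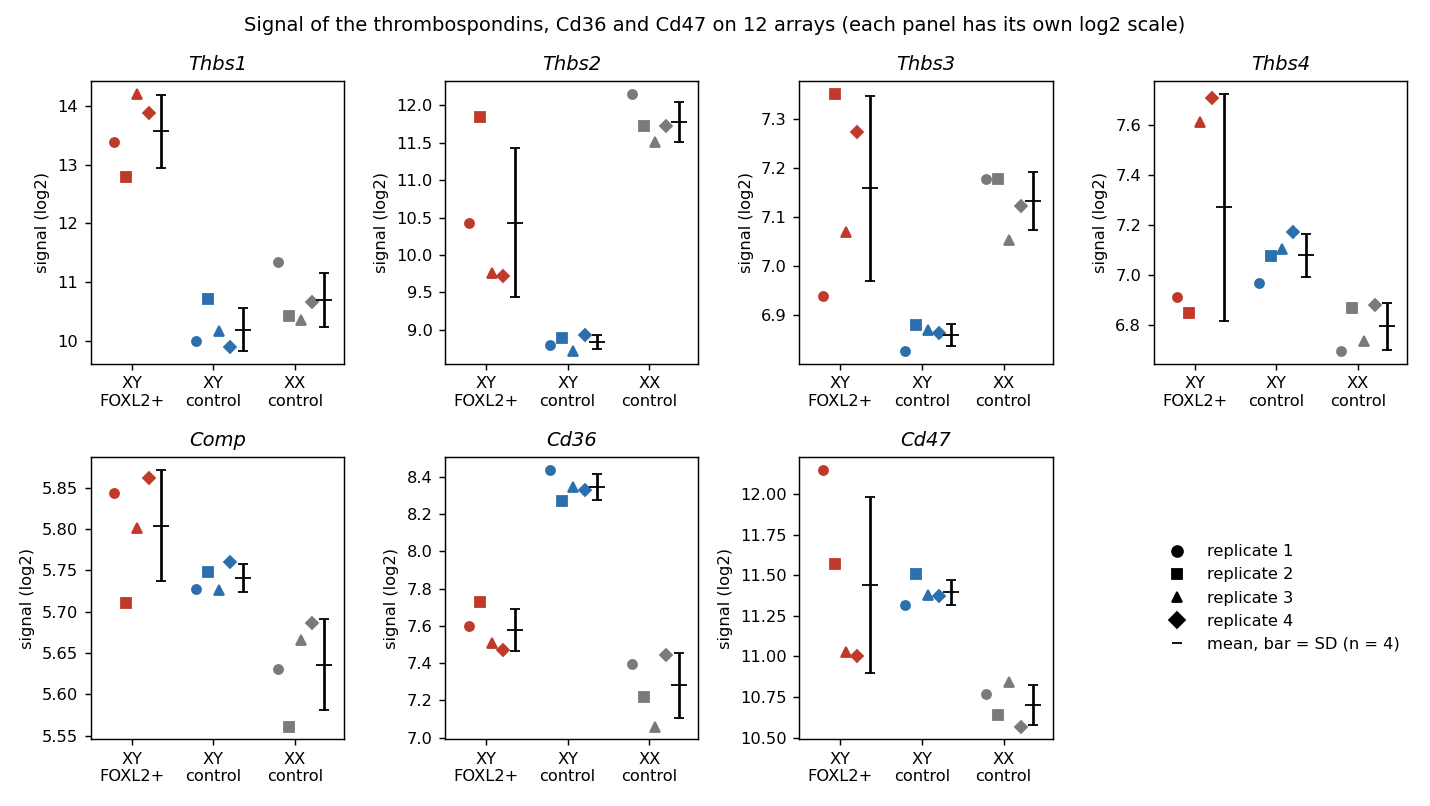
Log2 signal of the 7 genes on each of the 12 arrays, in XY FOXL2+, XY control and XX control gonads, with marker shapes for replicates and a bar for the mean and SD of 4 arrays. Thbs1 lies above both controls in all 4 XY FOXL2+ gonads, Thbs2 spreads between the controls, and Cd36 lies below the XY controls. Each panel has its own scale.

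Of the pentameric members, Thbs3 (chromosome 3) is a thrombospondin of bone and heart. Its signals were 6.94, 7.35, 7.07 and 7.28 in XY FOXL2+ gonads, 6.83, 6.88, 6.87 and 6.86 in XY controls, and 7.18, 7.18, 7.05 and 7.12 in XX controls. Every XY FOXL2+ array was above every XY control array, yet the gap between the nearest arrays was small. The difference of 0.30 (interval 0.11 to 0.49) missed the threshold (adjusted p = 0.0661), and it passed under 4 of 16 alternative settings, leaving out XY FOXL2+ replicate 1 among them (adjusted p = 0.0142). The difference from XX controls was 0.03 (interval -0.17 to 0.22, adjusted p = 0.921). Thbs3 was 0.27 higher in XX controls than in XY controls without overlap (adjusted p = 0.0536), a near miss that passed under 6 of 15 alternatives.

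Thbs4, a thrombospondin of tendon, muscle and heart (chromosome 13), read 6.91, 6.85, 7.61 and 7.71 in XY FOXL2+ gonads. It read 6.97, 7.07, 7.10 and 7.17 in XY controls and 6.70, 6.87, 6.73 and 6.88 in XX controls. Replicates 3 and 4 were above all 8 control arrays, and replicates 1 and 2 were below every XY control array. The group means, 7.27 ± 0.45 in XY FOXL2+ and 7.08 ± 0.09 in XY controls (SD, n = 4 each), had a difference of 0.19 (interval -0.18 to 0.56) that did not pass the test (adjusted p = 0.603). Without replicates 3 and 4 that difference turned to -0.20. Against XX controls it was 0.48 (interval 0.10 to 0.85, adjusted p = 0.145), and without replicate 2 it passed (adjusted p = 0.0312). The XX controls were all below the XY controls, by a difference of -0.29 that did not pass (adjusted p = 0.326) but passed in the fit of these 2 groups alone (adjusted p = 0.0204).

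Comp, the cartilage oligomeric matrix protein (chromosome 8), read 5.84, 5.71, 5.80 and 5.86 in XY FOXL2+ gonads, 5.73, 5.75, 5.73 and 5.76 in XY controls, and 5.63, 5.56, 5.67 and 5.69 in XX controls. These signals were below the averages of all 5 genes that should be silent. A level above that of silent genes was therefore not shown for Comp in any group. Its differences were 0.06 (interval -0.07 to 0.19, adjusted p = 0.625) from XY controls and 0.17 (interval 0.04 to 0.30, adjusted p = 0.140) from XX controls. Thbs3 and Thbs4 also read close to the highest of the silent genes, and changes of genes at that level may be compressed.

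Cd36, the receptor for the type 1 repeats (chromosome 5), had signals of 7.60, 7.73, 7.51 and 7.47 in XY FOXL2+ gonads. The XY controls read 8.44, 8.27, 8.34 and 8.33, and the XX controls 7.40, 7.22, 7.06 and 7.44. The 3 groups did not overlap, with XY FOXL2+ below XY controls and just above XX controls. Means were 7.58 ± 0.11 in XY FOXL2+, 8.34 ± 0.07 in XY controls and 7.28 ± 0.18 in XX controls (SD, n = 4 each). The difference from XY controls was -0.77 (SE 0.10, interval -0.98 to -0.56, adjusted p = 0.00035). From XX controls it was 0.30 (interval 0.09 to 0.51), which missed the threshold (adjusted p = 0.109) in a comparison where the exact permutation p was at its minimum of 0.0286.

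In the controls alone Cd36 was 2.09-fold lower in XX than in XY gonads (difference -1.06, interval -1.28 to -0.85, adjusted p = 1.1e-05). The signals of XY FOXL2+ and XX control gonads were close to that of Xist in XY controls (6.85 to 7.36), so the Cd36 folds, and the places given next, may be compressed. Set between XY controls at 0 and XX controls at 1, the XY FOXL2+ gonads stood at 0.70, 0.58, 0.79 and 0.82 for Cd36. These places were closer together than those of Thbs2, and replicate 2, the most female gonad for Thbs2, was the least female for Cd36. Since Cd36 is made by endothelial cells, macrophages and adipocytes, those markers are given with it. Endothelial markers averaged 9.28 to 9.56 in XY FOXL2+, 9.06 to 9.29 in XY controls and 8.87 to 9.13 in XX controls, with 3 of 9 called higher and none lower against XY controls. Macrophage markers averaged 7.32 to 7.48 in XY FOXL2+, 7.01 to 7.20 in XY controls and 6.9996 to 7.23 in XX controls, with 4 of 9 higher and none lower. The part of endothelial cells and macrophages in the Cd36 difference was not tested.

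Of 4 adipocyte markers, Plin1, a lipid droplet protein that steroidogenic cells also make, was lower in XY FOXL2+ (6.75 ± 0.25, against 7.99 ± 0.13 in XY controls; SD, n = 4 each; difference -1.24, adjusted p = 3e-05), and Adipoq, Fabp4 and Cidec were not called. These 3 averaged 4.99, 5.12 and 5.51 in XY FOXL2+ gonads, below the genes that should be silent. Each of 4 measured fetal Leydig markers was called lower against XY controls (4.67% of all clusters), as was Cd36. So were 7 of 8 Sertoli, 5 of 8 peritubular myoid and smooth muscle and 3 of 5 interstitial progenitor markers. Of the interstitial markers 1 was higher, and 5 of 9 fetal granulosa markers were higher and none lower. Within XY FOXL2+, fetal Leydig markers were highest in replicates 3 and 4, where Cd36 was lowest. The part of these cell types in the Cd36 difference was not tested.

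Cd47, the second receptor (chromosome 16), read 12.15, 11.57, 11.03 and 11.004 in XY FOXL2+ gonads, 11.32, 11.51, 11.38 and 11.37 in XY controls, and 10.77, 10.64, 10.84 and 10.57 in XX controls. Replicates 1 and 2 were above all XY controls, replicates 3 and 4 were below them, and all 4 were above the XX controls. The mean, 11.44 ± 0.54 in XY FOXL2+, differed by 0.04 (interval -0.40 to 0.49, adjusted p = 0.938) from 11.39 ± 0.08 in XY controls (SD, n = 4 each). With array weights the sign turned (-0.17), and without XY FOXL2+ replicate 1 it was -0.19. Against the XX control mean of 10.70 ± 0.12 the difference of 0.73 (interval 0.29 to 1.18, 1.66-fold) just missed the threshold (adjusted p = 0.0558) and passed under 7 of 16 alternatives. Leaving out XY FOXL2+ replicate 1, 3 or 4 was among these, with adjusted p of 0.0435, 0.0378 and 0.0370.

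In controls, Cd47 was 1.61-fold lower in XX than in XY gonads (difference -0.69, interval -1.13 to -0.25, adjusted p = 0.0326), without overlap. That call was lost under 9 of 15 alternatives. Leaving out any 1 of the 8 control arrays was enough, with adjusted p between 0.0509 and 0.0869. Under the other 6 alternatives it was kept, with an adjusted p as low as 0.00011. The main fit shares 1 estimate of the spread over groups with SDs of 0.54 (XY FOXL2+), 0.08 (XY controls) and 0.12 (XX controls). Red cells are rich in CD47, and 5 measured erythroid markers averaged 10.57, 11.34, 9.39 and 8.89 in XY FOXL2+ replicates 1 to 4, against 9.67 to 10.15 in XY controls and 9.75 to 10.24 in XX controls. Erythroid markers and Cd47 were both highest in replicates 1 and 2 and lowest in replicates 3 and 4, but replicate 2 led the one and replicate 1 the other. Fetal granulosa markers (9.17, 9.87, 8.17 and 8.11) and the mesonephric average (7.18, 7.06, 6.44 and 6.54) had the same division in replicates 1 to 4. Fetal Leydig and Sertoli markers had the reverse. Among the called mesonephric markers, Calb1 divided the gonads in that way (10.38, 9.80, 7.18 and 7.65). Ret (6.88, 7.54, 6.99 and 7.11) and Lhx1 (6.18, 5.93, 5.96 and 5.98) did not. The part of red cells in the Cd47 signal was not tested.

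**Figure D2:**
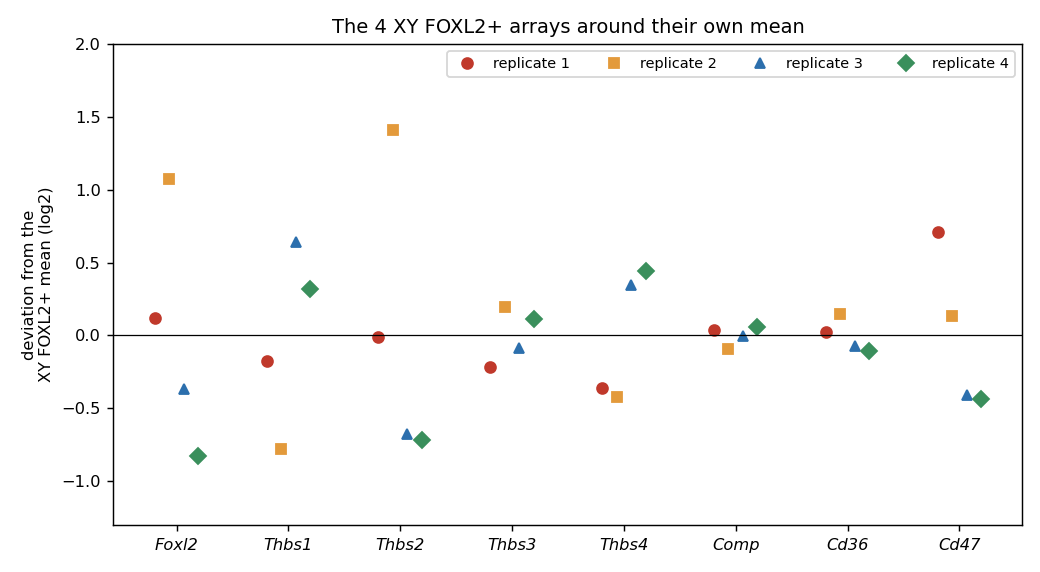
Deviation of each XY FOXL2+ gonad from the mean of the 4 XY FOXL2+ gonads (log2), for Foxl2 and the 7 genes. Replicates 3 and 4 are above the mean for Thbs1 and Thbs4 and below it for Foxl2, Thbs2, Cd36 and Cd47.

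Within the XY FOXL2+ group, several of the genes set replicates 3 and 4 apart from replicates 1 and 2. Replicates 3 and 4 were the highest in Thbs1 and Thbs4 and the lowest in Foxl2, Thbs2, Cd36 and Cd47. Thbs3, highest in replicates 2 and 4, and Comp, highest in replicates 1 and 4, did not divide the gonads in that way. The division was not particular to these genes. Replicates 3 and 4 also stood apart on the third principal component of all clusters and in fetal Leydig, Sertoli, granulosa and erythroid markers. The share of all clusters with this division was not counted. Deviations from the group mean ran from -0.78 (replicate 2) to 0.64 (replicate 3) for Thbs1 and from -0.72 (replicate 4) to 1.41 (replicate 2) for Thbs2. Cd36 deviated least among the 3 changed genes, by -0.10 to 0.15. With 4 gonads and no litter or day in the labels, the basis of this split was not tested.

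Counted over the family, 2 of 7 genes were higher in XY FOXL2+ than in XY controls and 1 of 7 was lower, with the shares of all clusters given above. The median difference of the 7 was 0.19, against 0.003 for all clusters. Compared with XX controls, 1 of 7 was higher (2.87% of all clusters) and 1 was lower (2.64%), with a median of 0.30 against 0.03 for all clusters. Between the controls, 1 of 7 was higher in XX than in XY (7.17% of all clusters) and 2 were lower (10.2%), with a median of -0.10 against -0.03. The comparisons share arrays, and a count of so few genes carries little beyond the single values above. Groups of XY FOXL2+ and XY control arrays did not overlap for 4 of the 7 genes, 3 of them higher and 1 lower, where 5.23% of clusters were higher and 6.97% lower in that way.

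**Figure D3:**
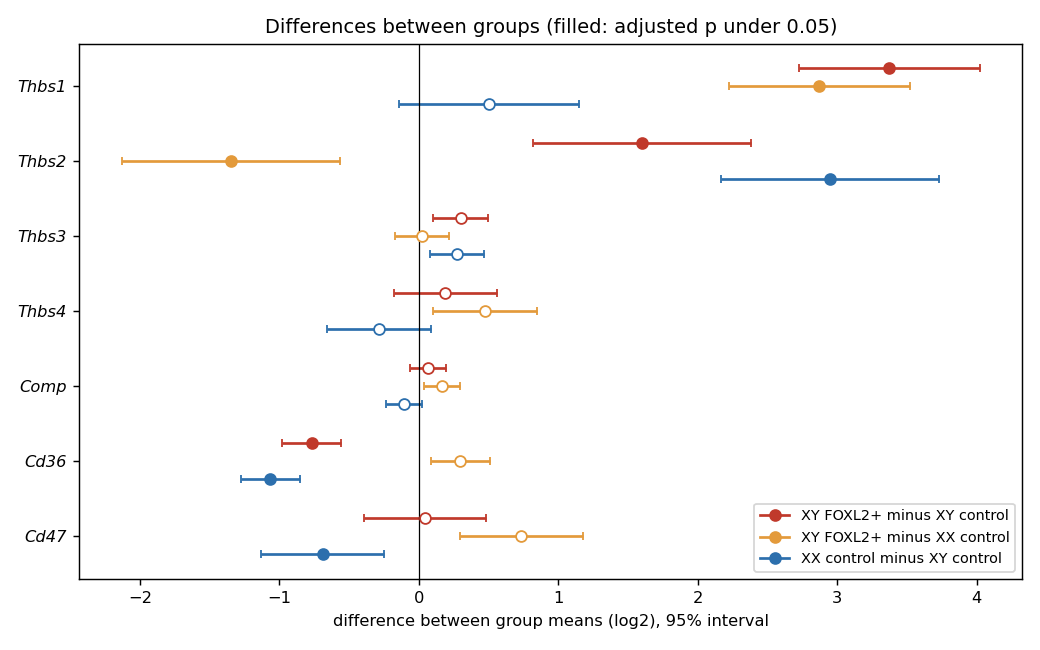
Differences between group means (log2, points) with 95% intervals for the 7 genes in 3 comparisons; filled points have an adjusted p under 0.05. Thbs1 is the only gene of the 7 called higher against both controls, at 3.37 and 2.87. Thbs2, Cd36 and Cd47 were called between the controls. For Thbs2 and Cd36 the XY FOXL2+ mean stands between the control means, though Cd36 was not called against XX controls.

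The genes whose signals ran most like those of Thbs1, Thbs2 and Cd36, the members whose group means spanned at least 1 on the log2 scale, were looked for among 17776 genes by Pearson's r over the 12 arrays. The r values describe 3 groups of arrays and carry no test. For Thbs1 they were Gm4788 (r = 0.987; means 11.39 in XY FOXL2+, 7.55 in XY controls and 8.47 in XX controls), Abca9, a lipid transporter of the ABC family (0.982; 9.01, 6.82 and 7.04 in the same order), and Adgre1, an adhesion receptor of the macrophage surface (0.976; 7.02, 6.65 and 6.71). For Thbs2 they were Stradb (0.991; 9.40, 8.49 and 9.95), Kank3 (0.989; 9.70, 8.50 and 10.61) and Foxl2os, the transcript opposite Foxl2 (0.988; 6.97, 5.80 and 7.96). For Cd36 they were Hnmt, the histamine methyltransferase (0.977; 7.60, 8.22 and 7.32), Pdgfrb, the PDGF receptor of perivascular and interstitial cells (0.976; 11.85, 13.28 and 11.41), and Otulinl (0.968; 7.73, 8.10 and 7.48). Adgre1, which is also in the list of macrophage markers, read 6.59 to 7.08 over the 12 arrays, near the signals of the silent genes.

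The proteins that thrombospondins bind or act through were followed in 8 lists. Of 90 listed genes 86 were measured. In XY FOXL2+ against XY controls 8 were higher (2.46% of all clusters), 14 were lower (4.67% of all clusters) and 64 did not pass. Their median difference was 0.003, and that of all clusters was 0.003. All clusters include 33206 that the annotation does not list. Among the 32978 clusters above the median signal, fitted alone, 1677 were higher and 3204 lower. The listed genes that changed are described by role.

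Among 13 other thrombospondin-binding receptors, 1 was higher and 3 were lower (median 0.02). Itga3, a laminin-binding integrin chain that also binds THBS1, averaged 9.59 ± 0.20 in XY FOXL2+ and 8.72 ± 0.07 in XY controls (SD, n = 4 each; difference 0.88, adjusted p = 0.00023). Cacna2d1, a calcium channel subunit that binds thrombospondins at synapses, was lower at 9.53 ± 0.26, against 10.58 ± 0.10 (difference -1.05, adjusted p = 0.00017). Itga4, a fibronectin-binding integrin chain, was lower (difference -1.49, adjusted p = 0.0397), but replicate 1 read 11.09, within the XY control range of 10.87 to 11.19, and the other 3 gonads read 8.83 to 9.27. That call was lost under 9 of 16 alternatives. Sdc1, a heparan sulfate proteoglycan, was lower (difference -0.35, adjusted p = 0.0387) and lost its call under 8 of 16.

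Of the genes that handle lipid with CD36, 2 of 8 measured were higher and 1 was lower (median -0.05). Scarb1, the HDL receptor that supplies cholesterol to steroidogenic cells, averaged 9.65 ± 0.24 in XY FOXL2+ and 12.52 ± 0.14 in XY controls (SD, n = 4 each). The difference was -2.87 (adjusted p = 7.5e-08). Pparg, a nuclear receptor that activates Cd36 in macrophages and fat cells, was higher at 7.61 ± 0.59, against 5.88 ± 0.12 in XY controls (difference 1.73, adjusted p = 0.00045). The lipid droplet coat gene Plin2 was higher by 1.23 (adjusted p = 0.00042). Cd36 was thus lower in gonads in which Pparg and Plin2 were higher. In XX controls against XY controls, a comparison that shares the XY arrays, the differences were 2.01 for Pparg, 1.65 for Plin2 and -3.25 for Scarb1.

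Of 8 measured genes of the CD47 axis, which include Sirpa, its ligand on macrophages, and the engulfment receptors Mertk and Axl, only Gas6 passed. Gas6, the ligand of Mertk and Axl, averaged 13.97 ± 0.51 in XY FOXL2+, 12.77 ± 0.08 in XY controls and 14.27 ± 0.13 in XX controls (SD, n = 4 each). The difference from XY controls was 1.20 (adjusted p = 0.00213).

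The TGF-beta genes are of interest beside Thbs1 as THBS1 can release TGF-beta from its latent complex. Of 12 ligands, latency proteins and receptors none was higher and 3 were lower (median -0.07): Lrrc32, which holds latent TGF-beta at the cell surface (difference -1.22, adjusted p = 0.00579), Ltbp4, which tethers it to matrix (9.62 in XY FOXL2+, against 10.62 in XY controls, adjusted p = 0.00997), and the ligand Tgfb2 (-0.82, adjusted p = 0.0100). Of 9 measured TGF-beta responsive genes 2 were higher and 3 were lower (median -0.39). The matrix proteins Tgfbi and Postn were higher, and Fn1 (fibronectin, difference -0.70, adjusted p = 0.00977), Tgif1 (-0.64, adjusted p = 0.0119) and Smad7 (-0.47, adjusted p = 0.0396) were lower. Tgif1 and Smad7 encode inhibitors of the pathway. The list as a whole had no single direction, and Smad7 lost its call under 9 of 16 alternatives.

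Tgfbi averaged 14.97 ± 0.76 in XY FOXL2+, 12.88 ± 0.54 in XY controls and 15.44 ± 0.18 in XX controls (SD, n = 4 each). It was 2.10 above XY controls (adjusted p = 0.00184), with replicates 1 and 2 at the female level. Postn, which encodes periostin, read 12.29, 12.15, 12.49 and 12.21 in XY FOXL2+ gonads, against 9.79 to 10.80 in XY controls and 10.24 to 11.06 in XX controls. Like Thbs1, it was above both controls on all 4 arrays, by 2.06 (adjusted p = 6.9e-05) and 1.55 (adjusted p = 0.00135), and the difference between the controls did not pass the test (0.51, adjusted p = 0.138).

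The 18 other proteins with thrombospondin type 1 repeats had 1 higher gene, 3 lower and 14 not called (median 0.03). Spon2, a secreted matrix protein, was higher by 0.51 (adjusted p = 0.00236) at a signal near that of the silent genes. Spon1, its relative F-spondin, was lower (difference -1.38, adjusted p = 2e-07). So were Sema5b, a guidance protein (difference -1.09, adjusted p = 0.00977), and Ccn4, a matricellular protein (difference -1.02, adjusted p = 0.00015). Sema5b was below both controls, with 8.53 to 9.81 in XY FOXL2+ gonads, against 9.94 to 10.28 in XY controls and 10.14 to 10.35 in XX controls (difference from XX controls -1.19, adjusted p = 0.00838).

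None of 10 cartilage genes, partners of COMP, passed the test (median 0.07). Of 10 measured genes of vessel growth that thrombospondins are known to oppose, 1 was higher and 1 was lower (median -0.01). Angpt1, the TIE2 ligand that steadies vessels, read 8.82, 8.54, 9.48 and 9.71 in XY FOXL2+ gonads, against 7.48 to 8.46 in XY controls and 7.49 to 7.93 in XX controls. It was above both controls on all 4 arrays, by 1.15 (adjusted p = 0.0142) and 1.35 (adjusted p = 0.00777), but the call against XY controls was lost without replicates 3 and 4 (0.69, adjusted p = 0.0715) and when those 2 groups were fitted alone (adjusted p = 0.0556). Gucy1b1, a subunit of the nitric oxide receptor whose signalling CD47 dampens, was lower (difference -0.84, adjusted p = 0.00034).

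**Figure D4:**
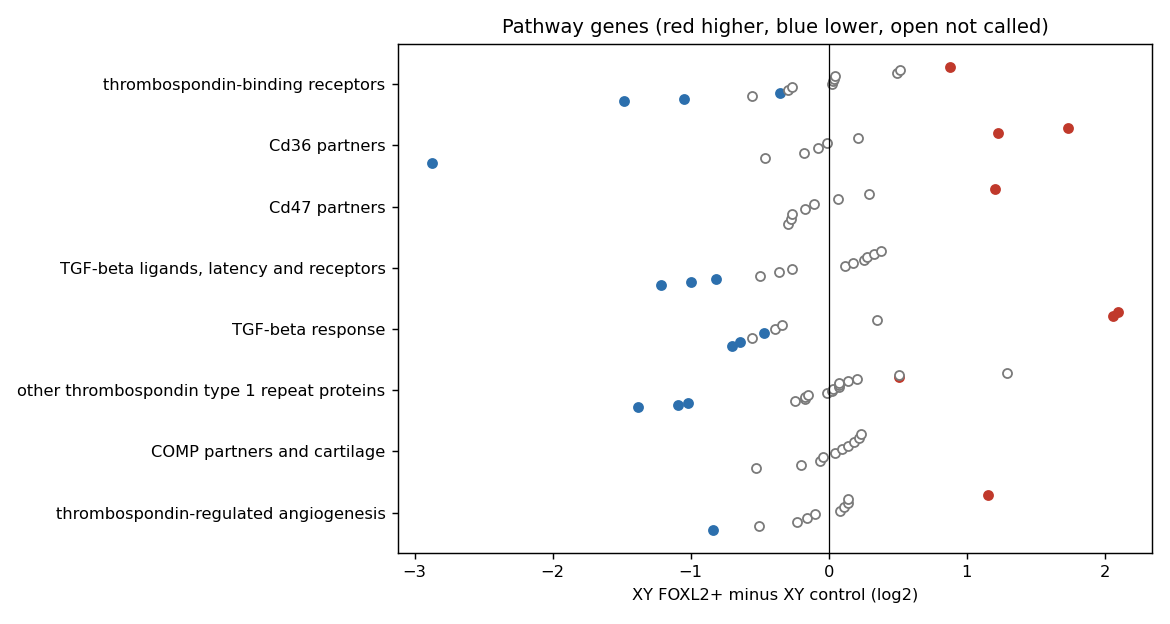
Difference of each listed gene between XY FOXL2+ and XY control gonads (log2, 1 point a gene), by list; red points were called higher, blue points lower and open points neither. The TGF-beta ligands, latency and receptors have 3 blue points and no red, the Cd47 partners 1 red and no blue, the cartilage genes neither, and the other lists both.

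Markers of the cell types that can make thrombospondins were read alongside. Platelets are a rich source of THBS1, and their 5 measured markers averaged 6.13 to 6.30 in XY FOXL2+, 6.03 to 6.90 in XY controls and 6.11 to 6.23 in XX controls, with none called. The XY control array with the highest platelet markers, replicate 2 at 6.90, was also the highest of its group in Thbs1 (10.70). That array also led its group in endothelial (9.29), macrophage (7.20), myoid (9.02), interstitial progenitor (12.31), erythroid (10.15) and mesonephric (6.62) markers. It did not lead in fetal Leydig, Sertoli, fetal granulosa, adipocyte or germ cell markers. The part of platelets in the Thbs1 difference was not tested.

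Peritubular myoid and smooth muscle markers averaged 7.88 to 8.31 in XY FOXL2+, 8.76 to 9.02 in XY controls and 7.74 to 8.02 in XX controls, with 5 of 8 lower than in XY controls. Acta2, smooth muscle actin, was lower (difference -1.59, adjusted p = 0.0013) and so was Tagln (difference -1.55, adjusted p = 0.00019). Their part in the Thbs1 difference was not tested. Of 5 interstitial progenitor markers 1 was higher and 3 were lower, with averages of 10.996 to 11.80 in XY FOXL2+, 12.07 to 12.31 in XY controls and 10.58 to 10.93 in XX controls. Wnt5a (-1.81, adjusted p = 0.00032) and Dlk1 (-1.19, adjusted p = 4e-05) were lower, and Maf, a factor of interstitial cells and macrophages, was higher (0.65, adjusted p = 0.0227) but lost its call under 7 of 16 alternatives. Leaving out XY FOXL2+ or XY control replicate 3 or 4 was enough (adjusted p 0.0524 to 0.0793).

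The called genes of the endothelial and macrophage lists, given beside Cd36, had the direction of Thbs1. Emcn (0.76, adjusted p = 0.022) and Cldn5 (0.73, adjusted p = 0.00739) led the endothelial genes, and C1qb (0.74, adjusted p = 0.0137) and Mrc1 (0.55, adjusted p = 0.00568) the macrophage genes. Of these, Emcn lost its call under 5 of 16 alternatives, leaving out XY control replicate 1, 3 or 4 among them (adjusted p 0.0543, 0.0762 and 0.0679), and C1qb under 2, one of them without XY control replicate 3 (adjusted p = 0.0509). The part of these cells in the Thbs1 difference was not tested. The endothelial list averaged 9.44 in XY FOXL2+ and 9.15 in XY controls, and the macrophage list 7.41 and 7.08 in the same order. Mesonephric markers, which would show remnants of the neighbouring tissue, averaged 6.44 to 7.18 in XY FOXL2+, 6.34 to 6.62 in XY controls and 7.21 to 7.62 in XX controls, with 1 of 5 higher (Calb1, 2.77, adjusted p = 0.00836) and 2 lower (Ret, -0.77, adjusted p = 0.0219, and Lhx1, -0.60, adjusted p = 0.0203). Ret lost its call under 5 alternatives, among them leaving out XY FOXL2+ replicate 1 or XY control replicate 2, 3 or 4 (adjusted p 0.0508 to 0.0652). Lhx1 lost its call under 4, among them leaving out XY FOXL2+ replicate 2 or XY control replicate 1 (adjusted p 0.0542 and 0.0568). Germ cell markers averaged 11.28 to 12.22 in XY FOXL2+, 12.04 to 12.56 in XY controls and 11.70 to 12.28 in XX controls, with none of 6 called.

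The same lists were counted in the other comparisons, which share arrays with the first. Against XX controls 19 of the 86 listed genes were higher in XY FOXL2+ (2.87% of all clusters), 9 were lower (2.64%) and 58 did not pass (median 0.14, against 0.03 for all clusters). In XX controls against XY controls 17 were higher (7.17% of all clusters), 31 were lower (10.2%) and 38 did not pass (median -0.14, against -0.03). Among the 32978 clusters above the median signal, 1909 were higher and 1988 lower in XY FOXL2+ against XX controls. In XX over XY controls 4513 of them were higher and 6259 lower.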

How the data were processed

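The deposited values are log2 signals, 1 per transcript cluster, from 12 one-colour Affymetrix Mouse Transcriptome Array 1.0 arrays, as the range of the deposited values shows. The log base and the steps by which the authors corrected background, summarized probes and normalized were not given in the sources used here; another base would rescale every difference and fold. Per the labels' protocols, total RNA isolated by Picopure kit was amplified and labelled with biotin (WT Plus kit). The values carry no detection calls, and the number of arrays limits the precision.

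Of 72688 entries, 6732 control probe sets were left out. Of the 65956 clusters tested, 31258 had 1 symbol in the platform annotation (old symbols were updated from RefSeq), 1492 had several and 33206 were not listed, and these last 2 kinds were left unnamed. Groups came from the sample titles. limma 3.58.1 in R 4.3.3 (lmFit, eBayes with an intensity trend) was fitted over all 3 groups without a filter, with 9 residual degrees of freedom and Benjamini-Hochberg adjustment over all clusters (threshold 0.05, two-sided). The fit was also run on simulated data with the same spread in every group, so that check does not cover groups of unequal spread. Single genes were also compared by exact permutation of 4 against 4 arrays (70 assignments). Intervals are 95%. Silent genes and markers set the scale for low signals. Motifs were searched in 32851 RefSeq promoter windows.

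The genes, the 8 pathway lists and the 12 marker lists were chosen with earlier results of these data known. All 7 members are named. Of each pathway list, up to 3 genes called in each direction against XY controls with the largest change are named, and of each marker list up to 2. For members spanning at least 1 between group means, the 3 genes with the highest r are named, and Foxl2 is named as the check of the labels. Alternatives were quantile normalization, median centring, a fit of 2 groups, array weights, no intensity trend, only clusters above the median signal, the replicate number as a block, and arrays left out. Taking the mean of a gene's clusters was not needed, since each member has 1.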

Additional observations from a re-analysis of the deposited data

Results flagged for a closer look

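Every value of 4 arrays in a group was examined for 1 array far from the other 3, over the 7 thrombospondin and receptor genes and the listed genes named in the text. Of 144 groups 8 had such an array, and chance alone gives about 5%. No group of a thrombospondin, of Cd36 or of Cd47 was among them. In XY FOXL2+ gonads, Emcn was lowest in replicate 2 (11.13, others 11.41 to 11.43) and Cldn5 was highest in replicate 1 (9.11, others 8.42 to 8.54). In XY controls, Plin2 was highest in replicate 2 (10.53, others 10.37 to 10.39), Plin1 was lowest in replicate 2 (7.80, others 8.04 to 8.08) and Tgif1 was lowest in replicate 4 (10.76, others 10.96 to 10.99). In XX controls, Sdc1 was lowest in replicate 2 (7.61, others 7.71 to 7.73), and replicate 3 was lowest in both Fn1 (13.91, others 14.15 to 14.17) and Mrc1 (8.05, others 8.29 to 8.32).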

How the results depend on the processing

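Thbs1 kept both calls under all 16 alternatives run (2.90 to 3.63 against XY controls, 2.39 to 3.13 against XX controls), and Cd36 kept its call against XY controls under all 16 (-0.82 to -0.68). Over all 7 genes and 3 comparisons, 326 alternatives gave 279 with the direction and the call kept, 20 that gained a call, 20 that lost one and 7 that turned sign. Higher genes against XY controls numbered 2, but 1 in the fit of those 2 groups alone, and 2 to 3 when single arrays were left out. Against XX controls 1 was higher, but 2 with quantile normalization, above-median clusters or XY FOXL2+ replicates 3 and 4 left out, 3 with array weights, and 1 to 2 without single arrays. There 1 was lower, but 0 with quantile normalization (adjusted p of Thbs2 0.0516), in the fit of 2 groups (0.135) or without replicates 3 and 4, and 0 to 1 without single arrays. Between the controls 1 was higher in XX, but 2 with quantile normalization, median centring, the fit of 2 groups, array weights, no intensity trend or above-median clusters, in each case through Thbs3. There 2 were lower, but 3 in the fit of 2 groups, through Thbs4 (adjusted p = 0.0204), 1 with median centring, and 1 whichever single control array was left out, through Cd47. Turned signs were Thbs3 against XX controls with median centring (-0.025; -0.038 to 0.099 without single arrays), Thbs4 against XY controls without replicates 3 and 4 (-0.20), and Cd47 against XY controls with array weights (-0.17; -0.19 to 0.19 without single arrays). None of these turned values had been called, and the causes were not tested. Of the listed genes, 19 were higher and 9 lower against XX controls, but 8 and 5 in the fit of 2 groups, a fit on fewer arrays. The named listed genes kept their direction under 655 alternatives and their call under 603. Against XY controls, 3 thrombospondin-binding receptors were lower but 1 in the fit of 2 groups, and 1 was higher but 2 with quantile normalization, which also called 1 cartilage gene. The fit of 2 groups called 0 angiogenesis genes and 0 interstitial markers higher and 1 mesonephric marker lower, where 1, 1 and 2 had been called.

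Replicate numbers did not pair the gonads: same-numbered arrays had correlations of -0.09 to 0.18 between their deviations from group means. With the replicate number as a block the members' counts did not move (2 higher and 1 lower against XY controls), Thbs1 kept an adjusted p of 0.00027, and Sdc1 (0.0611), Smad7 (0.0813) and Maf (0.0503) lost their calls. Over all clusters, 1621 were higher and 3077 lower against XY controls, but 809 and 1891 in the fit of 2 groups, 2184 and 2656 with quantile normalization, 3055 and 5263 without replicates 3 and 4, and 998 and 1051 higher without XY control replicates 3 and 4 in turn. Against XX controls, 1891 were higher and 1744 lower, but 944 and 972 in the fit of 2 groups, 3668 and 3084 with array weights, 1013 and 842 without replicates 3 and 4, and 1540 and 2172 with median centring. Without single arrays these counts were 980 to 2967 higher and 1032 to 3025 lower. In XX over XY controls, 4727 were higher and 6732 lower, but 6116 and 5385 with quantile normalization and 5782 and 5575 with median centring. Comp lies below the median signal and has no value in the setting that keeps brighter clusters.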

Other observations

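Of the listed genes called between XY FOXL2+ and XX control gonads, 19 higher and 9 lower, 8 are given here, chosen after their values were seen. Among the TGF-beta receptors, Tgfbr2 averaged 9.63 ± 0.10 in XY FOXL2+ and 8.89 ± 0.20 in XX controls (adjusted p = 0.00237), and Tgfbr3 averaged 10.57 ± 0.42 and 9.57 ± 0.13 in the same order (adjusted p = 0.00437). Ltbp1, a latent TGF-beta binding protein, was lower at 10.02 ± 0.31, against 11.18 ± 0.14 in XX controls (adjusted p = 0.0012). Of the proteins with type 1 repeats, the guidance protein Sema5a was higher by 1.77 (adjusted p = 0.00091), and Rspo1, a WNT activator of the ovary, had a difference of -1.72 (adjusted p = 0.0483). Of the thrombospondin receptors, Sdc4 was higher by 1.18 (adjusted p = 0.00718) and Itgb3 by 0.74 (adjusted p = 0.0325), and Itga6 averaged 12.54 ± 0.49 in XY FOXL2+, against 13.63 ± 0.16 in XX controls (adjusted p = 0.00522). All SDs are over 4 arrays, and the adjusted p-values are from the limma fit over all clusters. In the fit of these 2 groups alone, 8 of the listed genes were called higher and 5 lower, against 19 and 9 in the fit of all arrays. For the proteins with type 1 repeats these counts were 1 and 1, against 4 and 3. For the thrombospondin receptors they were 2 and 2, against 3 and 2. For the TGF-beta ligands, latency and receptors they were 2 and 1, against 3 and 1. Which of the genes given here kept their calls in that fit is not stated.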
